A study of Homo sapiens with 12 samples.

Results

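The mRNA decay regulators studied here are 10 genes whose proteins set the lifetime of short-lived mRNAs: ZFP36, ZFP36L1, ZFP36L2, BTG1, BTG3, TOB1, TOB2, ELAVL1, KHSRP and HNRNPD. They were chosen by name, with earlier results of these data known, and all 10 were among the 11963 genes measured. They were read by 27 probe sets that carry the gene's symbol alone, and the brightest probe set of each gene gave its main value. MDA-MB231, a cultured breast cancer line of the triple-negative type, was grown in DMEM with serum and exposed for 24 h to digoxin, rotenone, manassantin or the vehicle DMSO. Digoxin inhibits the sodium-potassium ATPase, rotenone blocks complex I of the respiratory chain and can bind tubulin, and manassantin is a plant lignan. Each of the 4 groups had 3 Affymetrix GeneChip arrays. The sample titles name digoxin where the design text names digitoxin, so which of these related glycosides the cells received cannot be told from the labels. The design text gives the third compound as manassantin A, and no dose or oxygen level is given in the sources used here. The labels do not say whether a group's 3 arrays were separate cultures, and p-values here reflect array-to-array spread that may be technical.

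Many cytokine, growth factor and early response mRNAs carry AU-rich elements near their 3' end. ZFP36 (tristetraprolin) and its relatives ZFP36L1 and ZFP36L2 bind these elements through CCCH zinc fingers and bring in the CCR4-NOT complex, which removes the poly(A) tail. BTG and TOB proteins bind the deadenylase subunits CNOT7 and CNOT8 and restrain cell growth, while KHSRP and HNRNPD (AUF1) bind AU-rich elements and mostly speed decay, and ELAVL1 (HuR) mostly protects the mRNA. Several of these genes are themselves early response genes with short-lived mRNAs.

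All values are log2 intensities with no transcript count behind them, and levels were compared between groups for 1 probe set at a time. All 10 main probe sets lay above 5.75, the 40th percentile of all genes. The 6 mesenchymal markers fixed for the line, VIM and CD44 among them, had mean values from 11.44 to 13.19, and 3 of 7 luminal markers (ESR1, GATA3 and EPCAM) lay above 5.75. The log2 value of the 18S rRNA control ranged from 9.92 to 10.25 with digoxin, from 9.83 to 10.11 with rotenone, from 9.49 to 10.38 with manassantin and from 10.10 to 10.73 with DMSO. The 3' minus 5' difference of the dap control lay between 2.55 and 3.72 over all arrays. That of actin ran from 0.92 (DMSO 1) to 1.53 (manassantin 3), and that of GAPDH from 0.20 to 0.28. In an RNA pool of many cells, less RNA per cell and fewer cells with the transcript cannot be told apart.

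Stretches around 4 start sites are shown, those of ZFP36, BTG1 and TOB1, which rotenone raised together, and that of HNRNPD, whose probe sets were called in opposite directions. They come from RefSeq (build GRCh38.p14) and run from 250 bases before the start to 50 after it, at chr19:39406597-39406896 (plus strand), chr12:92145797-92146096 (minus strand), chr17:50866305-50866604 (minus strand) and chr4:82373942-82374241 (minus strand). Capitals mark 4 motifs found on either strand: the TATAA box, the CCAAT box, the E-box CACGTG and the motif TGACG, which is the core of the cAMP response element.
ZFP36: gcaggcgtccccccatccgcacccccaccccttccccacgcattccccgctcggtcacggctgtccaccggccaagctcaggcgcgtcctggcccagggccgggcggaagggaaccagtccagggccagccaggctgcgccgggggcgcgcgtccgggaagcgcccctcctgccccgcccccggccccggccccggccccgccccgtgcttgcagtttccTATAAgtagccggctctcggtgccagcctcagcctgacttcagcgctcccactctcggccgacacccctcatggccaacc
BTG1: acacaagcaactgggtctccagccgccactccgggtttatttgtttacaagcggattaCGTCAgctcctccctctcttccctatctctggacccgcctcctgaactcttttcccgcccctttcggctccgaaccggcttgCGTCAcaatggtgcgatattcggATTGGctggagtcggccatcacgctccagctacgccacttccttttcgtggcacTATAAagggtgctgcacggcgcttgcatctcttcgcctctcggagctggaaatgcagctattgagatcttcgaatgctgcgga
TOB1: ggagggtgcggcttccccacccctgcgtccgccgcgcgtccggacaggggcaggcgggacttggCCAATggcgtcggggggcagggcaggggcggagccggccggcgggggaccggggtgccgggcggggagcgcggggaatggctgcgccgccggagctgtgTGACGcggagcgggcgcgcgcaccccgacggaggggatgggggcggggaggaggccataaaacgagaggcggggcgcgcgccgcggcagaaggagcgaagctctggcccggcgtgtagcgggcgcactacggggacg
HNRNPD: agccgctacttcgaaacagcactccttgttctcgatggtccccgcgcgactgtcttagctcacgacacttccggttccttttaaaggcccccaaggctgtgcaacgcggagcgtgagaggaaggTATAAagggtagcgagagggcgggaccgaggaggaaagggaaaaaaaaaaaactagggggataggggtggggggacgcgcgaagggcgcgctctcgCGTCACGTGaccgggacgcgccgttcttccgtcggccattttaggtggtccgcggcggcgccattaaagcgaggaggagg

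The ZFP36, BTG1 and HNRNPD stretches held TATAA, with its first base at -30, -33 and -126 from the start site, as did 20.4% of the 35116 promoters in the table. TOB1 had no TATAA in this window. BTG1 held TGACG at 2 places, and TOB1 and HNRNPD each held it at 1, where 24.6% of all promoters held this motif. CCAAT was present in BTG1 and TOB1 and in 34.6% of all promoters. In HNRNPD the E-box CACGTG, at -27, overlapped TGACG, which lies on the other strand at -30, and 7.26% of all promoters held an E-box of these letters. Another TOB1 start site further upstream, at chr17:50867929-50868228 (minus strand), held none of the marked motifs. Of the 10 genes, 8 matched the table, with 10 entries. The AP-1 site TGANTCA was found in 0 of these entries and in 7.71% of all promoters, and the NF-kB site in 0 and in 5.91%. A CArG box, not capitalised, began at base 6 after the HNRNPD start site and was held by 1.29% of all promoters. The full cAMP response element TGACGTCA, which contains TGACG, was found in 1 of the ZFP36L1 entries and in 1.85% of all promoters.

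**Figure D1:**
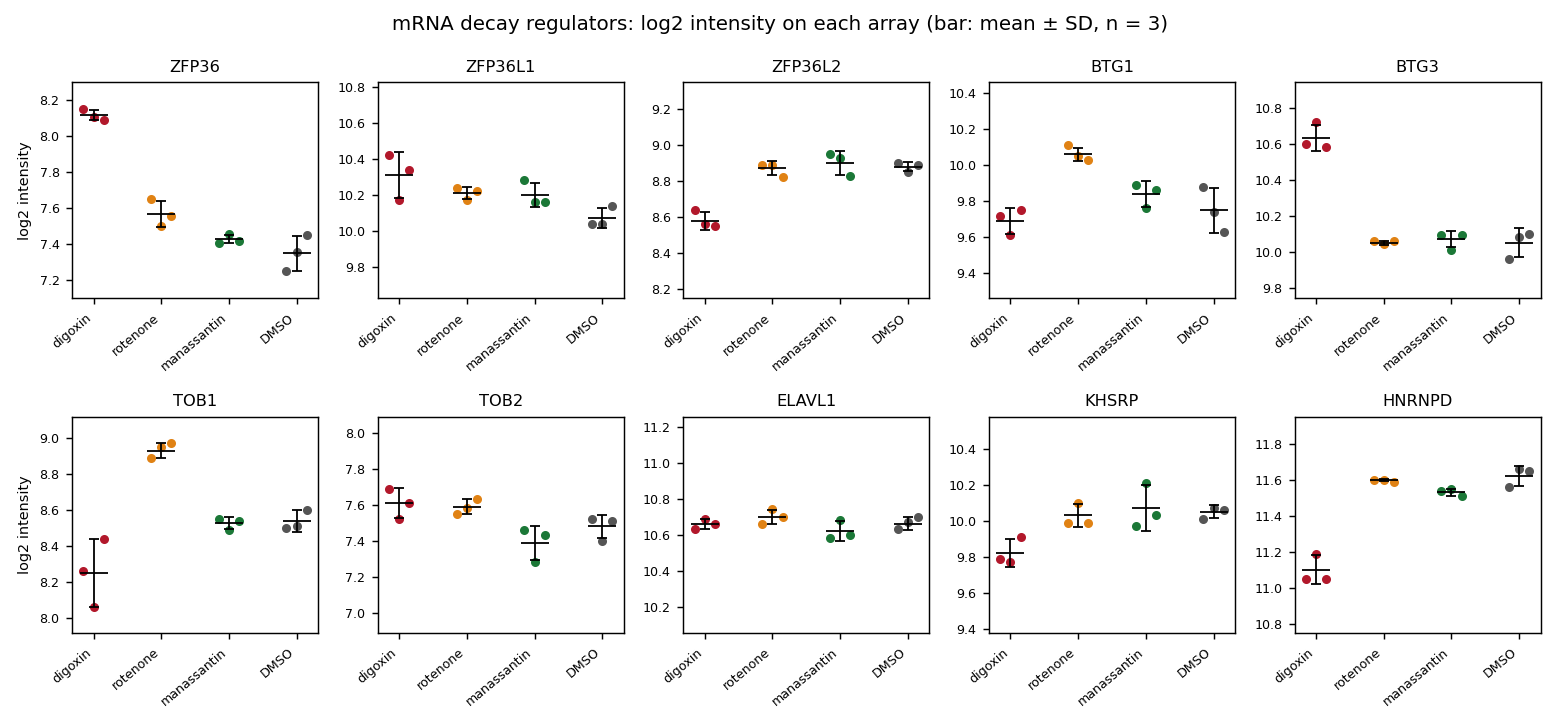
Log2 intensity (y axis, 1 panel per gene, each spanning at least 1.2 units at its own level) of the brightest probe set on each array, with digoxin, rotenone, manassantin and DMSO on the x axis. Points are arrays and bars the mean ± SD of 3 arrays. ZFP36 and BTG3 stand highest with digoxin, BTG1 and TOB1 with rotenone, and HNRNPD lowest with digoxin.

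Digoxin against DMSO asked what the glycoside did to these regulators. Of the 10 genes, 3 rose (ZFP36, ZFP36L1 and BTG3) and 4 fell (ZFP36L2, TOB1, KHSRP and HNRNPD), by limma with an adjusted p under 0.05 over all genes. The same call was made for 54.8% of all genes, 28% higher and 26.9% lower, so most genes on the array were called as well. With genes under the 40th percentile left out, 7 of the 10 were called, and 5240 genes in all. The arrays of the groups did not overlap for 7 of the 10 genes, against 61.9% of all genes. The median change of the 10 genes was -0.03 on the log2 scale, and that of all genes 0.07.

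Among the zinc finger proteins, the members moved apart. ZFP36 stood at 8.15, 8.11 and 8.09 on the digoxin arrays, against 7.25, 7.36 and 7.45 on the DMSO arrays. Every digoxin array was above every DMSO array, and the rise was 0.76 ± 0.0575 (SE, n = 3 arrays each) on the log2 scale, or 1.7-fold (adjusted p = 2.99e-07). ZFP36L2, which like its relatives acts on AU-rich mRNAs, stood at 8.64, 8.56 and 8.55 with digoxin, against 8.90, 8.85 and 8.89 with DMSO. All of its digoxin arrays were below the DMSO arrays, and it fell by 0.30 on the log2 scale (SE 0.0495, n = 3 each, adjusted p = 0.000272), with a second probe set also lower, at -0.20. ZFP36L1 rose less at its brightest probe set, with 10.42, 10.17 and 10.34 with digoxin against 10.04, 10.04 and 10.14 with DMSO. That change was 0.24 ± 0.0653 (adjusted p = 0.00841), while its probe set 211965_at gave 0.64 ± 0.0771 (adjusted p = 1.91e-05 over all probe sets). Its other 2 probe sets, with means of 3.87 and 3.31, were dim and not called.

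Of the BTG and TOB genes, BTG3 had the largest change. Its values were 10.60, 10.72 and 10.58 with digoxin, against 9.96, 10.08 and 10.10 with DMSO, without overlap. BTG3 rose by 0.59 ± 0.0547 on the log2 scale (adjusted p = 1.96e-06), and its other probe sets gave 0.59 and 0.25, both called. TOB1, which also contacts the poly(A)-binding protein, stood at 8.26, 8.06 and 8.44 with digoxin, against 8.50, 8.51 and 8.60 with DMSO. Its digoxin arrays spread widely (SD 0.189, against 0.0596 with DMSO), yet lay below the DMSO arrays, and it fell by 0.28 on the log2 scale (SE 0.0791, adjusted p = 0.00913). BTG1, from the same family as BTG3, differed by -0.06 (95% interval -0.20 to 0.09, adjusted p = 0.498) and its other probe set by 0.14, neither called. TOB2, a close relative of TOB1, stood at 0.13 (95% interval -0.01 to 0.27, adjusted p = 0.104). TOB2 was called higher in 7 of 17 alternatives, among them quantile normalization (0.23, adjusted p = 0.00641), array-median centring (0.21, adjusted p = 0.0074), the mean of its probe sets (0.21, adjusted p = 0.023) and array weights (0.16, adjusted p = 0.0457).

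Of the RNA-binding proteins outside these families, HNRNPD changed most. Its brightest probe set stood at 11.05, 11.19 and 11.05 with digoxin, against 11.56, 11.66 and 11.65 with DMSO. The groups lay apart, and the value fell by 0.53 on the log2 scale (SE 0.0511, adjusted p = 2.69e-06). KHSRP, which can recruit the exosome to AU-rich mRNAs, stood at 9.79, 9.77 and 9.91 with digoxin, against 10.01, 10.07 and 10.06 with DMSO. It fell by 0.22 on the log2 scale (adjusted p = 0.0147), but its other probe sets, at 0.13 and -0.09, were not called. ELAVL1 stood at 10.63, 10.69 and 10.66 with digoxin, against 10.63, 10.67 and 10.70 with DMSO, with a 95% interval of the difference from -0.10 to 0.10. Its dimmer probe set was called higher, at 0.18.

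The direction of small changes with digoxin depended on the scale of the arrays. The median over all genes was 0.065 as deposited, 0.152 with each array centred on its median over all probe sets, and 0.252 with centring on the median of the genes tested. The split of calls over all genes went with it, with 3347 higher and 3214 lower as deposited, 5020 and 2685 with the first centring, and 6952 and 2158 with the second. Under the second centring, chosen after seeing the data, ZFP36 (0.95), ZFP36L1 (0.43) and BTG3 (0.77) were higher and HNRNPD (-0.34) was lower, as before. There 5 of the 10 genes were called higher and 1 lower, where 3 and 4 were as deposited and 4 and 3 with the first centring. ZFP36L2 (-0.11, adjusted p = 0.0556), TOB1 (-0.10, adjusted p = 0.253) and KHSRP (-0.04, adjusted p = 0.64) were no longer called, and ELAVL1 (0.18) and TOB2 (0.31) were called higher. KHSRP also lost its call with array-median centring (-0.14, adjusted p = 0.107), with the mean of its probe sets (-0.06, adjusted p = 0.457) and without digoxin replicate 2 (adjusted p = 0.054).

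**Figure D2:**
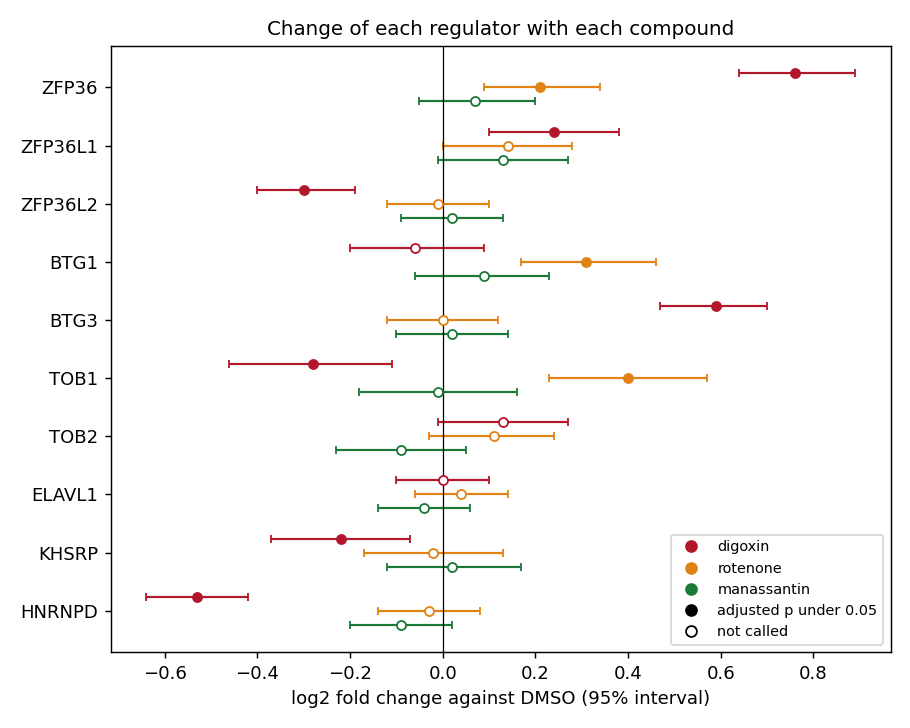
Log2 fold change against DMSO (x axis) of each gene (y axis) with digoxin, rotenone and manassantin, with its 95% interval from the fit on all 12 arrays. Filled points have an adjusted p under 0.05. TOB1 is the gene called in opposite directions, at -0.28 with digoxin (not called under centring on the genes tested) and 0.40 with rotenone.

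Rotenone against DMSO raised 3 of the 10 genes, ZFP36, BTG1 and TOB1, and lowered 0. Over all genes 6.94% were called (3.55% higher and 3.39% lower), and the groups did not overlap for 5 of the 10 genes against 31.2% of all genes. The median change of the 10 genes was 0.07, and that of all genes 0.01. TOB1 stood at 8.89, 8.95 and 8.97 with rotenone, against 8.50, 8.51 and 8.60 with DMSO, and rose by 0.40 ± 0.0791 on the log2 scale, or 1.32-fold (adjusted p = 0.0123). Rotenone and digoxin thus had TOB1 arrays on opposite sides of all DMSO arrays. BTG1, a brake on proliferation, stood at 10.11, 10.05 and 10.03 with rotenone, against 9.88, 9.74 and 9.63 with DMSO. It rose by 0.31 ± 0.0675 (adjusted p = 0.0177), and its other probe set rose by 0.29 (adjusted p = 0.0272). ZFP36 stood at 7.65, 7.50 and 7.56 with rotenone, against 7.25, 7.36 and 7.45 with DMSO, and rose by 0.21 ± 0.0575 (adjusted p = 0.0457). For the other 7 genes the difference lay between -0.03 and 0.14, with ZFP36L1 at 0.14 (adjusted p = 0.252) and TOB2 at 0.11 (adjusted p = 0.376).

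The start sites of these 3 genes are printed above, and their calls depended on which arrays and settings were used. Without rotenone replicate 2 or without DMSO replicate 2, 0 of the 10 genes were called, although TOB1 kept a change of 0.39 and 0.38 (adjusted p = 0.0521 and 0.0516). BTG1 also lost its call without rotenone replicate 1 or DMSO replicate 3, and ZFP36 without rotenone replicate 1 or 3 or DMSO replicate 1, and with the 18S control as a covariate TOB1 alone was called. ZFP36 lost its call in 9 of 17 alternatives, which also include every probe set tested (adjusted p = 0.0605) and a fit on only the rotenone and DMSO arrays (adjusted p = 0.092).

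Manassantin against DMSO called 0 of the 10 genes by limma, and 0 of them had an unadjusted p under 0.05. Over all genes 0.97% were called (0.853% higher and 0.117% lower), and 15.8% had an unadjusted p under 0.05. Centring on the genes tested gave 47 higher and 24 lower genes, against 102 and 14 as deposited. TOB1 stood at 8.55, 8.49 and 8.54 with manassantin, against 8.50, 8.51 and 8.60 with DMSO, with a 95% interval of the difference from -0.18 to 0.16. ZFP36 stood at 7.41, 7.46 and 7.42 with manassantin, within the DMSO range of 7.25 to 7.45 but for 1 array, and its interval ran from -0.05 to 0.20. The arrays did not overlap for ZFP36L1 (10.28, 10.16 and 10.16 with manassantin, against 10.04, 10.04 and 10.14 with DMSO) and HNRNPD (11.54, 11.55 and 11.51, against 11.56, 11.66 and 11.65). That is 2 of 10 genes, against 22.4% of all genes. ZFP36L1 differed by 0.13 (adjusted p = 0.367) and HNRNPD by -0.09 (adjusted p = 0.435). For the other 8 genes the difference lay between -0.09 and 0.09.

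The compounds were then set against each other directly. Manassantin against rotenone called 1 of the 10 genes, TOB1, which was lower with manassantin by a log2 change of -0.41 ± 0.0791 (adjusted p = 0.00943), where 8.47% of all genes were called (4.69% higher and 3.78% lower, which became 349 higher and 665 lower genes with centring on the genes tested, against 561 and 452 as deposited). Its manassantin arrays, at 8.49 to 8.55, all lay under its rotenone arrays, at 8.89 to 8.97. BTG1 differed by -0.23 (adjusted p = 0.0587) and TOB2 by -0.20 (adjusted p = 0.0751) in the same direction. Same-numbered arrays of these groups deviated together. With the replicate number as a block 3 of the 10 genes were called, against 1352 of all 11963 genes. The 3 were TOB1 (-0.41, adjusted p = 0.0067), BTG1 (-0.23, adjusted p = 0.0369) and TOB2 (-0.20, adjusted p = 0.0316). ZFP36 stood at -0.14 (95% interval -0.27 to -0.02, adjusted p = 0.162).

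Digoxin against rotenone called 7 of the 10 genes, 2 higher (ZFP36 and BTG3) and 5 lower, where 50.5% of all genes were called (24.2% higher and 26.3% lower). Centring on the median of the genes tested turned the split over all genes to 6534 higher and 2095 lower, where it was 2892 and 3147 as deposited. There ZFP36L1 (0.28), TOB2 (0.20) and ELAVL1 (0.14) were also called higher, and ZFP36L2 (-0.11, adjusted p = 0.0606) and KHSRP (-0.03, adjusted p = 0.745) were not called. Array-median centring called ZFP36L1 higher too (0.18, adjusted p = 0.023). TOB1 had the widest gap, a log2 change of -0.68 ± 0.0791 (1.61-fold lower, adjusted p = 1.39e-05). BTG1 was lower with digoxin at -0.37 ± 0.0675 (adjusted p = 0.000571) on its brightest probe set, and its other probe set stood at -0.14 (adjusted p = 0.0908). ZFP36 was higher at 0.55 ± 0.0575 and BTG3 at 0.58 ± 0.0547. KHSRP (-0.20, adjusted p = 0.0251) lost its call without digoxin replicate 1 (adjusted p = 0.0695) or 2 (0.0837) or rotenone replicate 2 (0.0923), with array-median centring (-0.12, adjusted p = 0.157) and with the mean of its probe sets (-0.07, adjusted p = 0.392).

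Digoxin against manassantin called 7 of the 10 genes as well, where 56.7% of all genes were called (28.6% higher and 28.1% lower). ZFP36 (0.69), BTG3 (0.57) and TOB2 (0.22) were higher with digoxin, and HNRNPD (-0.44), ZFP36L2 (-0.32), TOB1 (-0.27) and KHSRP (-0.25) were lower. TOB1 and KHSRP lost this call with each centring of the arrays, and TOB1 also with quantile normalization (-0.18, adjusted p = 0.0524). ZFP36L2 lost it with centring on the genes tested (-0.10, adjusted p = 0.0761) and with the mean of probe sets (-0.06, adjusted p = 0.352). HNRNPD (-0.05, adjusted p = 0.388), KHSRP (-0.07) and TOB2 (0.13) also lost it with that mean. ZFP36L1 (0.33) and ELAVL1 (0.26) were called higher with centring on the genes tested, where 7237 genes in all were higher and 2176 lower, against 3418 and 3363 as deposited. Array-median centring also called ZFP36L1 (0.20, adjusted p = 0.0139) and ELAVL1 (0.13, adjusted p = 0.0362) higher. With the mean of probe sets ZFP36L1 was called higher as well (0.20, adjusted p = 0.00635). TOB2 stood at 7.69, 7.52 and 7.61 with digoxin, against 7.46, 7.28 and 7.43 with manassantin, without overlap (adjusted p = 0.0106).

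The order of the group means is given for 4 genes. ZFP36 ran from 8.12 ± 0.029 (SD, n = 3) with digoxin to 7.57 ± 0.0717 with rotenone, 7.43 ± 0.0247 with manassantin and 7.35 ± 0.0991 with DMSO, and of these neighbours digoxin and rotenone differed by the test. TOB1 ran from 8.93 ± 0.0427 with rotenone to 8.54 ± 0.0596 with DMSO, 8.53 ± 0.0342 with manassantin and 8.25 ± 0.189 with digoxin, and DMSO and manassantin were the neighbours not called different. BTG1 ran from 10.06 ± 0.0367 with rotenone to 9.84 ± 0.072 with manassantin, 9.75 ± 0.125 with DMSO and 9.69 ± 0.0709 with digoxin, and no neighbouring groups were called different in the fit on the deposited values. Manassantin and rotenone, its neighbours at the top, were called different in 6 of 17 alternatives, the replicate block among them. For BTG3 digoxin, at 10.63 ± 0.0729, stood above the other groups, which had means from 10.05 to 10.07.

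HNRNPD was read by 6 probe sets that did not move together. HNRNPD makes several protein isoforms by alternative splicing, and its probe sets need not read the same transcripts. The files do not say which part of the gene each one reads. With digoxin 4 of them fell, by 0.53 (221481_x_at), 0.52 (200073_s_at), 0.45 (209330_s_at) and 1.15 (221480_at) on the log2 scale, and 213359_at rose. That probe set stood at 8.66, 8.75 and 8.75 with digoxin, at 6.61, 6.61 and 6.81 with rotenone, at 7.20, 6.96 and 7.17 with manassantin and at 7.08, 7.42 and 7.32 with DMSO. All of its digoxin arrays were above and all of its rotenone arrays below every DMSO array. Against DMSO it rose by 1.45 ± 0.094 with digoxin (adjusted p = 8.23e-08 over 19064 probe sets) and fell by 0.60 on the log2 scale with rotenone (SE 0.094, adjusted p = 0.00397). In these fits 16 of the 27 probe sets of the 10 genes were called with digoxin (8 higher and 8 lower), 4 with rotenone (3 and 1) and 0 with manassantin, against 51.1%, 5.18% and 0.546% of all probe sets.

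Manassantin left 213359_at at -0.16 (adjusted p = 0.468), and it was higher with manassantin than with rotenone by 0.43 (adjusted p = 0.0187). The remaining probe set, 205183_at, was dim, with a mean of 3.69, and was not called in any comparison. The gene's fall with digoxin on the mean of its probe sets was -0.18 (adjusted p = 0.012), and that mean lost the call against rotenone (-0.01, adjusted p = 0.875) and against manassantin (-0.05, adjusted p = 0.388).

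**Figure D3:**
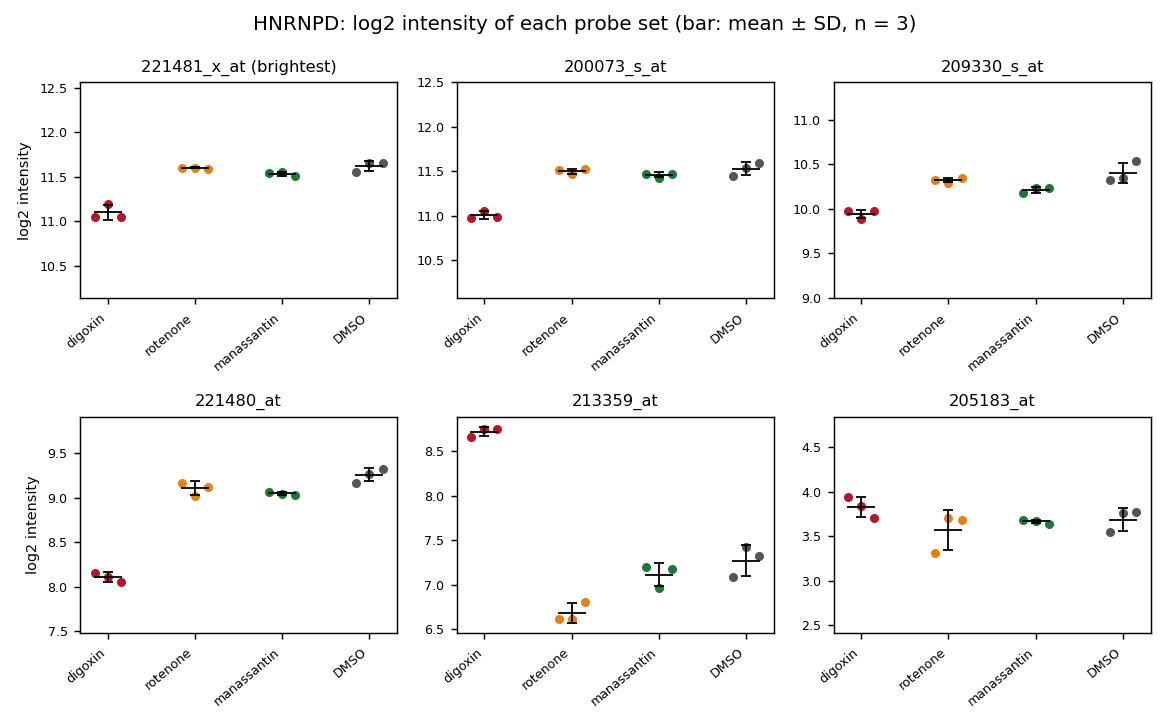
Log2 intensity (y axis, the same span in each panel) of the 6 HNRNPD probe sets on each array, with digoxin, rotenone, manassantin and DMSO on the x axis. Points are arrays and bars the mean ± SD of 3 arrays. With digoxin 221480_at lies lowest of its groups, near 8.11, and 213359_at highest of its groups, near 8.72.

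The machinery that these regulators call on was examined next, from lists chosen with earlier results of these data known. Of 11 measured genes listed under deadenylases and CCR4-NOT, digoxin raised 6 and lowered 3, with a list median of 0.14 against 0.07 over all genes. Over this and the next 3 lists, 41 of 50 measured genes were called, 29 higher and 12 lower. Over all genes 54.8% were called (28% higher and 26.9% lower), dim genes included. With genes under the 40th percentile left out, 5240 genes were called, and the lists were not matched for brightness. CNOT3, a CCR4-NOT subunit, rose by 0.69 ± 0.0501 and NOCT (nocturnin) by 0.66 ± 0.0906, while PARN and PAN2, which encode poly(A) nucleases, and CNOT4 fell, with log2 changes of -1.22 ± 0.0628 (adjusted p = 1.33e-08), -0.81 ± 0.0642 and -0.39. CNOT7, the deadenylase subunit that BTG and TOB proteins bind, rose by 0.24 and CNOT8 by 0.14. Of 13 decapping genes 9 rose and 3 fell, with LSM1 at 0.88, DCP1A at 0.77 and DCP2, the decapping enzyme, at 0.76, against LSM2 at -0.37, DCPS at -0.29 and EDC4 at -0.20. Of 12 exosome genes 8 rose and 2 fell, with EXOSC2 at 0.64 against the nuclease DIS3 at -0.99 and SKIC3 at -0.92. Of 14 other mRNA-binding regulators 6 rose and 4 fell, UPF1, which drives nonsense-mediated decay, by 0.88 against TIA1, a translational repressor, at -1.58, IGF2BP3 at -0.65, HNRNPDL, a paralog of HNRNPD, at -0.46 and PCBP2 at -0.12. With centring on the median of the genes tested, the 3 lower decapping genes and PCBP2 were no longer called lower. The splits became 6 and 3, 9 and 0, 9 and 2, and 10 and 3, where 6952 of all 11963 genes were higher and 2158 lower.

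Rotenone called 1 of the 50 measured genes of these 4 lists, EXOSC9, at -0.22 (adjusted p = 0.0161), against 6.94% of all genes. With either centring 3 were called, adding NOCT (0.33 and adjusted p = 0.0511 as deposited, 0.0439 with array-median centring) and TIA1 (-0.61 and adjusted p = 0.0539 as deposited, 0.0494 with array-median centring). Manassantin called 0 by limma, against 0.97% of all genes. In the 4 lists 0, 1, 1 and 1 genes had an unadjusted limma p under 0.05 with manassantin, against 15.8% of all genes. MAPKAPK2, the kinase that phosphorylates and restrains ZFP36, rose by 0.48 ± 0.0545 with digoxin (adjusted p = 1.14e-05) and by 0.23 ± 0.0545 with rotenone (adjusted p = 0.0283). Among the upstream regulators of ZFP36 digoxin also raised PPP2R1A (0.19) and PPP2CA (0.16), phosphatase subunits, and lowered MAPKAPK3 (-0.74). DUSP1, a phosphatase that switches off the p38 pathway, rose by 1.89 ± 0.108 with digoxin and by 0.87 ± 0.108 with rotenone. Of the other relatives of the 10 genes, BTG4 was measured, with a dim mean of 3.65. BTG4 was not called against DMSO, except that it was called higher with digoxin under centring on the genes tested (0.24).

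Of 21 measured AU-rich mRNAs known as targets of these proteins, digoxin raised 17 and lowered 3, against 28% and 26.9% of all genes. The list, also chosen with earlier results of these data known, had a median of 0.80, against 0.07 over all genes. The largest rises were those of the transcription factor gene EGR1 (3.81 ± 0.15) and the cytokine genes CXCL8 (3.69 ± 0.0976) and IL6 (3.20 ± 0.0883). The 3 lower ones were PLAU (-0.99), CCND1 (-0.22) and VEGFA (-0.17, adjusted p = 0.0479), and under centring on the genes tested PLAU alone was called lower. Rotenone raised 12 and lowered 0, against 3.55% and 3.39% of all genes, with a median of 0.28. EGR1 (1.35), CXCL2 (1.11), IL6 (0.85) and FOS (0.84) rose most. Manassantin raised 2, IER3 (0.34, adjusted p = 0.0178) and PLAUR (0.24, adjusted p = 0.0483), against 0.853% of all genes called higher. The list median was 0.13, and with either centring PLAUR was no longer called. Of the 21, 12 had an unadjusted limma p under 0.05 with manassantin, against 15.8% of all genes. For 13 the manassantin and DMSO arrays did not overlap, against 22.4% of all genes. These comparisons share the DMSO arrays.

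**Figure D4:**
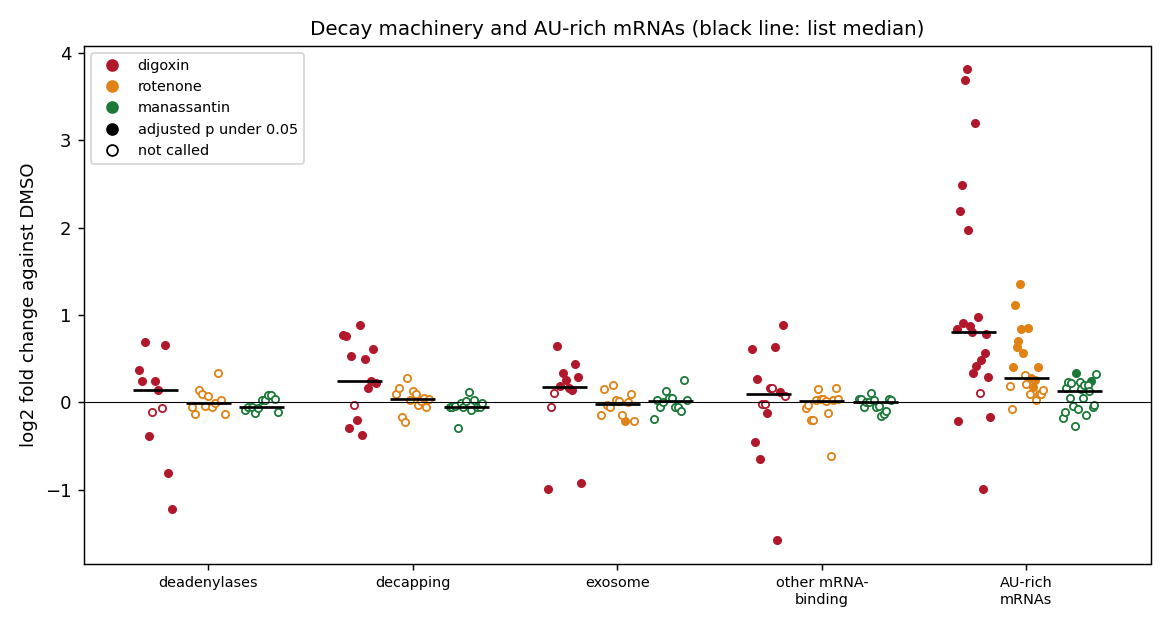
Log2 fold change against DMSO (y axis) of the measured genes of 5 lists (x axis) with digoxin, rotenone and manassantin. Each point is a gene, filled where the adjusted p is under 0.05, and black lines are list medians, which reach 0.80 for AU-rich mRNAs with digoxin and 0.28 with rotenone.

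For the 4 genes with the widest range of group means, the nearest genes were found by the root mean square difference over the 12 arrays after each gene was centred on its mean. The genes nearest to ZFP36 were WWC1 (0.054), RMDN3 (0.068) and GRPEL1 (0.069). Those nearest to TOB1 were ZFTA (0.062), FEM1C (0.086) and CSRNP2 (0.092). BTG3 was nearest to SNRPD1 (0.036), CNBP (0.037) and UBE2V2 (0.040), and HNRNPD to CDC123 (0.036), DDX1 (0.043) and DROSHA (0.047). The points share arrays and a common scale, and the digoxin arrays carry much of the range.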

How the data were processed

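Gene expression was measured on 12 Affymetrix arrays, 3 per group, with groups and replicate numbers from the sample titles. Per the labels' protocols, RNA was column-purified, amplified, biotin-labelled and hybridized. The authors deposited probe set values that were read as log2 intensities from their range, 1.655 to 13.75, with array medians from 5.88 to 6.00; how they were background-corrected, summarised and normalized is not stated. Of 22277 probe sets, 62 were controls, 19064 had 1 gene symbol in the platform annotation, 1043 several and 2108 none. Each gene was represented by its brightest probe set (11963 genes).

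Group differences come from limma 3.58.1 (R 4.3.3), fitted to all 12 arrays with a group term alone (8 residual degrees of freedom) and Benjamini-Hochberg adjustment over all genes; adjusted p-values under 0.05 are called. Errors are the model's standard errors unless given as SD. The 10 genes and the lists were chosen with earlier results of these data known. All 10 genes are named; from the lists, the called genes with the largest changes (up to 4 per list and compound), genes covered by a count of 5 or fewer, and CNOT7 and CNOT8, chosen after their values were seen. The number of arrays limits the precision.

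Pairing was checked by correlating each array's deviations from its group mean across genes. For manassantin and rotenone same-numbered arrays correlated at 0.107 to 0.362, each over 0.1, so a fit with the replicate number as a block is given beside that comparison. In the others at least 1 pair lay under 0.1. Between digoxin and each other group, same-numbered arrays correlated at 0.051 to 0.158. Each of these was above the correlations with other-numbered arrays, so weaker pairing there is not excluded. Figures were drawn with matplotlib 3.10.9.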

Additional observations from a re-analysis of the deposited data

How the results depend on the processing

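Alternatives were quantile normalization, centring of arrays, leaving out dim genes, every probe set tested, the probe sets of a gene averaged, a prior with trend and robust fit, array weights, the replicate number as a block, the 18S control as a covariate, a fit on only the 2 groups and leaving out each array. Centring on the median of the genes tested was added after seeing the data. Of 1020 recomputed member changes, 948 stayed on the same side of the threshold (42 of these, uncalled in both fits, changed sign). Of the rest, 40 lost a call, 30 gained one with the same sign and 2 gained one with a changed sign. These 2 were ELAVL1 with the added centring, at 0.18 for digoxin against DMSO and 0.14 for digoxin against rotenone. As deposited ELAVL1 was not called in these comparisons, at 0.00 and -0.04. ZFP36, ZFP36L1, BTG3 and HNRNPD kept their digoxin calls against DMSO in all 17 alternatives, and TOB1 its manassantin against rotenone call. For HNRNPD the mean of probe sets gave -0.18, where its brightest probe set gave -0.53 and 213359_at gave 1.45.

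For rotenone against DMSO, 3 members were called, 1 with the 18S covariate and 0 to 2 with arrays left out. Over all genes 830 were called, 1301 without dim genes, 1312 with the trended prior, 1614 with array weights, 339 with the 18S covariate and 346 to 500 with arrays left out. For manassantin against DMSO, where 0 members were called in every alternative, 116 genes were called in all, 76 with centring, 71 with the added centring, 491 without dim genes, 66 with every probe set, 503 with the trended prior, 278 with array weights, 291 with the replicate block, 3 with the 18S covariate, 4 with only the 2 groups and 7 to 25 with arrays left out. For manassantin against rotenone, 1 member was called, 2 with quantile normalization, centring or array weights and 3 with the added centring, without dim genes, with the trended prior or with the replicate block. Over all genes the count was 1013, 1540 without dim genes, 1545 with the trended prior and 500 to 835 with arrays left out. For digoxin against manassantin, 7 members were called and 4 with the mean of probe sets. The cause of these moves was not tested. With the replicate block, 8 members were called for digoxin against DMSO (TOB2 added, adjusted p = 0.0472) and 2 for rotenone against DMSO (ZFP36 not called, adjusted p = 0.0573). Over all genes that block called 6784 and 1081 in these comparisons. Without digoxin replicate 2, TOB2 was called against DMSO (0.17, adjusted p = 0.0496) and ZFP36L1 against rotenone (0.17, adjusted p = 0.0354) and manassantin (0.18, adjusted p = 0.0258). Other digoxin counts, both directions together, stayed within 1.5 times, while the split between directions moved with the centring.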
